A study of Homo sapiens with 15 samples.

Results

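The EGFR family is described here by 10 genes of the 62700 in the count tables, which were chosen by gene symbol alone. They are 3 receptors (EGFR, ERBB2 and ERBB3), 6 ligands (AREG, EREG, HBEGF, TGFA, BTC and NRG1) and the inhibitor ERRFI1. The RNA came from 143B, an established human osteosarcoma cell line that was derived from HOS cells. There were 5 conditions with 3 libraries each. The non-OSC libraries came from wild-type cells grown attached to plastic in DMEM with serum, and the OSC libraries from wild-type cells grown as tumorspheres, the culture form taken in the study for osteosarcoma stem cells (OSCs). The shCtrl, shPDK1#1 and shPDK1#2 libraries came from 143B cells that carried a lentiviral control vector or one of a pair of hairpins against PDK1 and were kept under sphere conditions. PDK1, pyruvate dehydrogenase kinase 1, inhibits the enzyme complex that turns pyruvate into acetyl-CoA. The sphere medium was DMEM/F12 with B27 and with recombinant EGF and basic FGF. The added EGF, basic FGF and B27, the base medium, the loss of serum and the loss of attachment changed together between non-OSC and OSC. Their parts cannot be told apart. No label states that the libraries of a condition came from separate cultures, so the p-values measure the spread between these libraries, which may be technical.

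EGFR, ERBB2 and ERBB3 are receptor tyrosine kinases that signal in pairs. AREG, HBEGF, TGFA, EREG and BTC bind EGFR, and HBEGF, EREG and BTC also bind ERBB4. NRG1 binds ERBB3 and ERBB4, while ERBB2 has no known ligand of its own and serves as the partner. The ligands are made as membrane proteins and are released by metalloproteases such as ADAM17, and the active receptors feed RAS, RAF, MEK and ERK as well as PI3 kinase and AKT. ERRFI1, also called MIG6, binds the kinase domain of EGFR and shuts it down, and it is itself a well-known target gene of EGFR signaling, which makes it a feedback inhibitor. EGFR is often expressed in osteosarcoma.

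Of the 10 genes, 8 had a promoter entry in RefSeq (GRCh38.p14). ERBB3 and NRG1 had none. The 250 bases upstream of the start are shown for a receptor, for the ligands that fell or rose with sphere culture, and for the inhibitor, in cases where the RefSeq and GENCODE starts are the same base. They run 5′ to 3′ on the strand of the gene, and capitals mark every match, on either strand, to a CRE, an AP-1 site, a TATA box, a CCAAT box, a GC box or a CArG box, whose letters follow the sequences.
EGFR, chr7:55018767-55019016, plus strand: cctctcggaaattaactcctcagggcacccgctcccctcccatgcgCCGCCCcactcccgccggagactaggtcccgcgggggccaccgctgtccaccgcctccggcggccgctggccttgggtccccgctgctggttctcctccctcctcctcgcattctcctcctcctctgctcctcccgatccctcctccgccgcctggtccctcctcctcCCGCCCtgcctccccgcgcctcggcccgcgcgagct
HBEGF, chr5:140346604-140346853, minus strand: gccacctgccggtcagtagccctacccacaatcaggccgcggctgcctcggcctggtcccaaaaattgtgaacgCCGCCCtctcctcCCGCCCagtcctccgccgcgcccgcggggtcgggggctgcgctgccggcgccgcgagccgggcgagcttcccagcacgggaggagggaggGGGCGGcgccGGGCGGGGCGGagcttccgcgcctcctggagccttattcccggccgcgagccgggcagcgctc
AREG, chr4:74444886-74445135, plus strand: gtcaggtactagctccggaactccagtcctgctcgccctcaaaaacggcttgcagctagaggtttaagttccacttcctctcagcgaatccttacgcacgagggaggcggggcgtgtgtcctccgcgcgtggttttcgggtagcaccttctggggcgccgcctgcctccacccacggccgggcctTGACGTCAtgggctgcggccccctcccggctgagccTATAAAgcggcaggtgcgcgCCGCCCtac
ERRFI1, chr1:8026310-8026559, minus strand: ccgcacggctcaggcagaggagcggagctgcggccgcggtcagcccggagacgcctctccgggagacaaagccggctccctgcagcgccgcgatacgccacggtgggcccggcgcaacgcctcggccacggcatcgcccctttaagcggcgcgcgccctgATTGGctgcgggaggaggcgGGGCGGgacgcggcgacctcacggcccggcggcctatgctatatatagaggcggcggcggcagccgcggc

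The AREG window held a CRE (TGACGTCA) that began 65 bases before the start of transcription. It also held a TATA box, searched as TATAAA, which began 29 bases before the start. A GC box on the opposite strand lay between 9 and 4 bases before the start. A CRE was present in 1.63% and a TATA box in 10.8% of the 34941 RefSeq windows of this length. The EGFR and HBEGF windows held GC boxes alone (searched as GGGCGG and its reverse complement), with 2 in EGFR and 5 in HBEGF, of which one pair shared a base. A GC box was present in 42.5% of all windows. In the ERRFI1 window there was 1 GC box and 1 CCAAT box on the opposite strand (searched under the letters of its name), the latter a motif of 32.0% of all windows. No window that is shown held an AP-1 site, searched as TGANTCA, or a CArG box, searched as CCWWWWWWGG with W for A or T. They were found in 6.59% and 1.16% of all windows. A second RefSeq entry of EGFR, not shown, held matches to the AP-1 site and the TATA box and none to the GC box. These are matches of letters, and binding at them was not measured.

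The libraries held 7992505 to 11256530 counts. CPM here are counts relative to library sizes after TMM normalization, and comparisons between genes used CPM per kb of the GENCODE 44 canonical transcript. PDK1 itself was at 44.4 to 46.7 CPM in the 3 shCtrl libraries, 27.3 to 29.0 with shPDK1#1 and 18.3 to 21.5 with shPDK1#2, with no overlap between the groups. Of 9 osteoblast lineage markers, 5 were over 1 CPM in each condition except shPDK1#2, where 6 were, and SP7, a defining factor of osteoblasts, was at 0 counts in both cultures. The summed level of these markers, mostly COL1A1 and SPARC, was 1010 to 1092 CPM in non-OSC and 2004 to 2105 in OSC. Mean levels of COL1A1 (416.9 to 1057 CPM) and SPARC (549.6 to 945.9) were higher in OSC. Those of RUNX2 (37.7 to 17.3), ALPL (2.66 to 1.49) and COL1A2 (0.907 to 0.041) were lower, so the markers did not move one way. The sum of 5 epithelial markers, mostly KRT18 and KRT8, was 1097 to 1227 in non-OSC and 292 to 302 in OSC. In the hairpin table the osteoblast sum was 2225 to 2301 CPM in shCtrl, 2382 to 2483 with shPDK1#1 and 2837 to 2981 with shPDK1#2, and the epithelial sum was 330 to 354, 379 to 397 and 436 to 475, with no overlap between the groups in either. The part of these shifts in the results below was not tested. The summed levels of 3 endothelial and 3 haematopoietic markers did not exceed 1.85 and 2.77 CPM in any library. OSC and non-OSC came in one table and the hairpin libraries in another. The columns of the first were named S2D and S3D, which were read as attached and sphere culture. No source states this reading in words, and the direction of each comparison of OSC with non-OSC rests on it. Each table was fitted on its own with the quasi-likelihood test of edgeR, and a gene was called at a Benjamini-Hochberg adjusted p under 0.05 over all genes tested in the table.

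In each condition the family was made up of much ERRFI1 and EGFR, less ERBB2 and low levels of 4 ligands. In non-OSC, mean levels per kb were 174.6 CPM per kb for ERRFI1, 48.7 for EGFR, 11.02 for ERBB2 and 7.90 for HBEGF. TGFA at 1.93 ± 0.11 (SD, n = 3) and NRG1 at 1.82 ± 0.20 CPM per kb did not differ beyond their spread, and AREG followed at 0.843 ± 0.20. In OSC, the order of ERRFI1 (550.3), EGFR (36.7) and ERBB2 (9.16 CPM per kb) was kept. HBEGF at 4.35 ± 0.42 and TGFA at 4.01 ± 0.43 CPM per kb were within their spread of each other, and AREG at 2.83 ± 0.75 stood above NRG1 at 1.76 ± 0.12. In shCtrl, AREG led the ligands with 3.45 ± 0.40 CPM per kb, ahead of HBEGF at 2.601 ± 0.23, TGFA at 1.42 ± 0.23 and NRG1 at 0.913 ± 0.12.

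**Figure D1:**
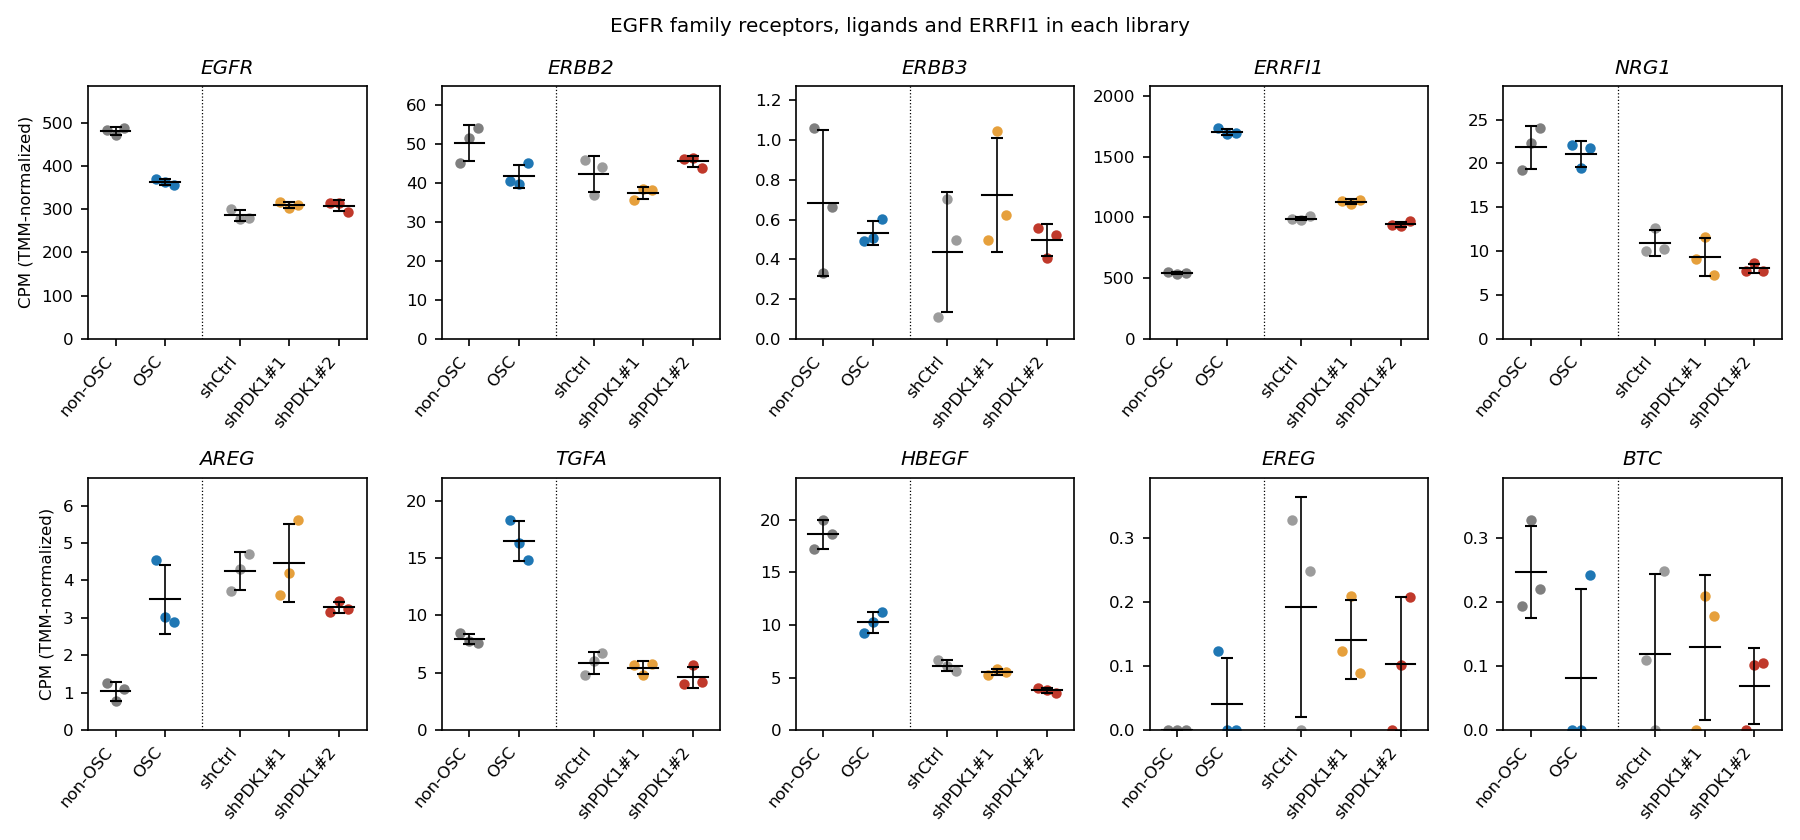
Levels of the 10 genes in each library, as TMM-normalized CPM on linear axes that start at 0 and differ between panels. Points are libraries, horizontal bars the mean of 3 and whiskers the SD, and the dotted line separates the 2 count tables, which were normalized apart. ERRFI1 rose from 535–549 CPM in non-OSC to 1684–1736 in OSC, and HBEGF was lower in every OSC library than in every non-OSC library.

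Transcripts of 3 members were close to absent. ERBB3 (ENSG00000065361.17), the receptor with a weak kinase that pairs with ERBB2, had 1 to 11 counts per library over all 15 libraries and group means of 0.436 to 0.723 CPM. EREG (ENSG00000124882.4) had 0 counts in all 3 non-OSC libraries and at most 3 in any other library. BTC (ENSG00000174808.12) had at most 3 counts in any library. A count of 0 allows up to 3 counts, so neither ligand rose above what 0 allows in any library. These 3 genes did not pass the filter on low counts in either table and were not tested, and differences in them were not detectable at this depth. The other 7 members passed it in both tables.

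Sphere culture was compared with attached culture to see how the family differs between OSCs and non-OSCs. Of the 7 members tested, 6 were called, with ERRFI1, AREG and TGFA higher and EGFR, ERBB2 and HBEGF lower in OSC. The comparison called 63.9% of the 14287 genes tested, 32.4% as higher and 31.5% as lower in OSC, so 6 of 7 is not far from the background and the sizes say more than the count. The median log2 fold change over all tested genes was -0.01, and that over the 7 members was -0.05, the value of NRG1.

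EGFR (ENSG00000146648.21, chr7:55019017-55211628, plus strand, 28 exons in the canonical transcript), the receptor of the added EGF, was at 485.3, 472.2 and 488.8 CPM in non-OSC and at 371.1, 363.7 and 356.7 CPM in OSC. Every OSC library was lower than every non-OSC library. In bulk RNA, fewer cells that express a gene and less of its RNA per cell cannot be told apart. The OSC mean was 75.5% of the non-OSC mean, with a log2 fold change of -0.41 ± 0.042 (SE, adjusted p = 2.11e-08, edgeR). ERBB2 (ENSG00000141736.14, chr17:39687914-39730426, plus strand, 27 exons) was at 45.1, 51.4 and 54.1 CPM in non-OSC and at 40.4, 39.7 and 45.2 in OSC. The groups met at their edges, where the highest OSC library was just above the lowest non-OSC library. The log2 fold change was -0.27 ± 0.087 (SE, adjusted p = 0.0113, edgeR), and the call was lost without non-OSC replicate 3 (-0.21, adjusted p = 0.0653) or without OSC replicate 2 (-0.23, adjusted p = 0.0653). EGFR per ERBB2, on the scale of CPM per kb, was 4.44 ± 0.44 in non-OSC and 4.03 ± 0.34 in OSC (SD, n = 3), with overlapping libraries. On the opposite strand, exons of MIEN1 and PGAP3 cover 6.93% of the exon bases of ERBB2 and EGFR-AS1 covers 1.17% of those of EGFR. Whether strand was used in counting is not given in the sources used here, so reads from these stretches cannot be told apart.

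The EGFR ligands moved in opposite directions. HBEGF (ENSG00000113070.8, chr5:140332843-140346603, minus strand, 6 exons), a heparin-binding ligand, was at 17.3, 20.0 and 18.6 CPM in non-OSC and at 9.24, 10.3 and 11.2 CPM in OSC. The groups were far apart, and the OSC mean was 55.1% of the non-OSC mean, a log2 fold change of -0.86 ± 0.13 (SE, adjusted p = 7.8e-06, edgeR). TGFA (ENSG00000163235.16, chr2:70447284-70554193, minus strand, 6 exons), transforming growth factor alpha, was at 8.49, 7.77 and 7.60 CPM in non-OSC and at 18.4, 16.3 and 14.9 in OSC. Every OSC library was above every non-OSC library, and the mean was 2.07 times as high, a log2 fold change of 1.05 ± 0.14 (SE, adjusted p = 1.67e-06, edgeR). In the shCtrl spheres, which were normalized apart, TGFA (5.85 ± 0.95 CPM) and NRG1 (10.9 ± 1.5 CPM) were below both non-OSC and OSC. Means of EGFR (286.1), ERBB2 (42.2), HBEGF (6.13), AREG (4.26) and ERRFI1 (990.0 CPM) in shCtrl lay on the OSC side of non-OSC. The shCtrl cells carried a vector, and the difference between these sphere sets was not tested.

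AREG (ENSG00000109321.11, chr4:74445136-74455005, plus strand, 6 exons), the low-affinity ligand amphiregulin, had 13, 7 and 10 counts in non-OSC and 37, 30 and 24 in OSC. The corresponding levels were 1.25, 0.766 and 1.10 CPM against 4.56, 3.04 and 2.90 CPM, with no overlap. The log2 fold change was 1.72 ± 0.36 (SE, 95% interval 0.97 to 2.48, adjusted p = 0.000295, edgeR), and the wide interval goes with the few counts. NRG1 (ENSG00000157168.22, chr8:31639222-32855666, plus strand, 12 exons), the neuregulin that binds ERBB3 and ERBB4, was at 19.2, 22.3 and 24.0 CPM in non-OSC and at 22.1, 19.4 and 21.7 CPM in OSC. The libraries of the groups were interleaved. The log2 fold change was -0.05 with a 95% interval of -0.29 to 0.18 (adjusted p = 0.707, edgeR), which does not show that the levels are equal.

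The sum over the 6 ligands did not separate the cultures, while its parts did. Summed ligand transcripts were at 12.6 ± 0.47 CPM per kb in non-OSC and 13.0 ± 0.83 in OSC (SD, n = 3), with overlapping libraries. HBEGF made up 62.7% ± 2.4 of that sum in non-OSC and 33.7% ± 5.0 in OSC. TGFA went from 15.4% ± 1.5 to 30.8% ± 1.9, and AREG from 6.74% ± 1.8 to 21.6% ± 4.3. These 3 shares did not overlap between the cultures. In the shCtrl spheres the shares were 30.9% ± 4.4 for HBEGF, 16.7% ± 1.9 for TGFA and 40.6% ± 2.7 for AREG. Sums and shares of ligands, here and with the hairpins, rest on the transcript lengths used. An exact permutation test of 3 libraries against 3 cannot go below p = 0.1, so shares, sums and ratios are given without a test.

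ERRFI1 (ENSG00000116285.13, chr1:8004404-8026309, minus strand, 4 exons) had the smallest p of the members. It was at 549.3, 535.0 and 538.1 CPM in non-OSC and at 1736, 1684 and 1693 CPM in OSC. The OSC mean was 3.15 times the non-OSC mean, a log2 fold change of 1.66 ± 0.036 (SE, adjusted p = 1.57e-19, edgeR). With EGFR lower and its inhibitor higher, ERRFI1 per EGFR, as CPM per kb, was 3.59 ± 0.058 in non-OSC and 14.98 ± 0.18 in OSC (SD, n = 3). The sum of counts in these libraries was 15468 and 44753 for ERRFI1, so counting error was small. An unnamed gene on the opposite strand overlaps 3.71% of the exon bases of ERRFI1.

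**Figure D2:**
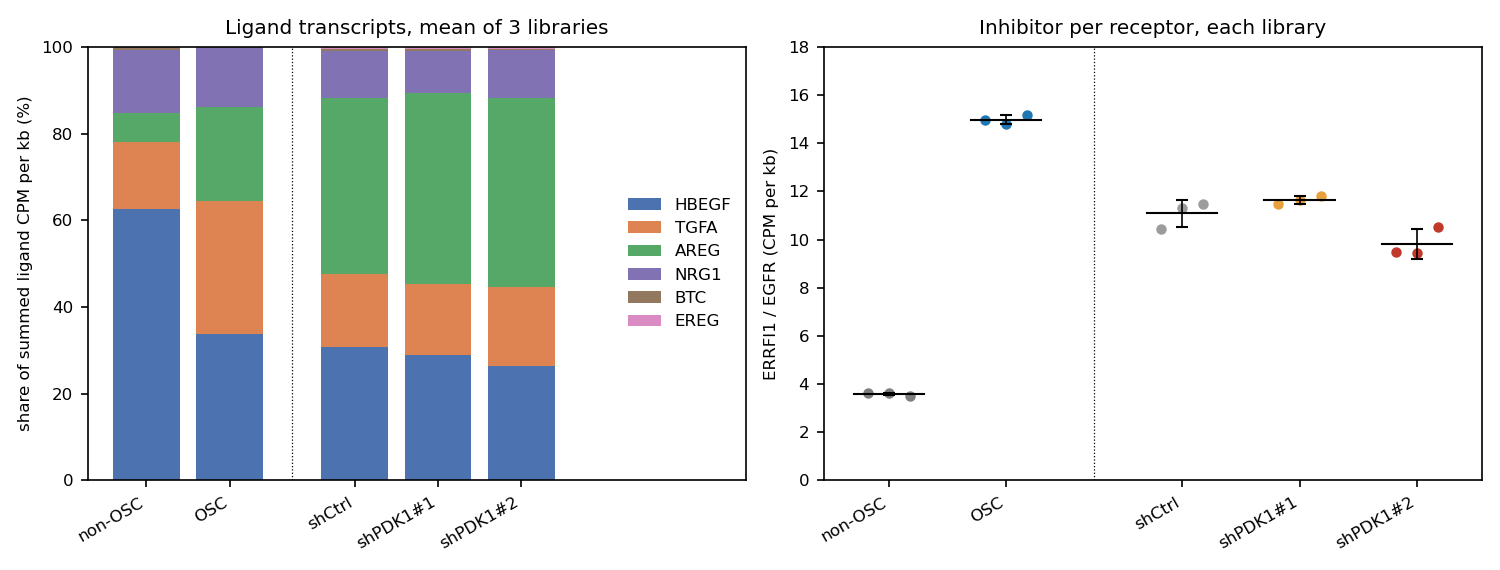
Left, mean share of each ligand in the summed ligand CPM per kb (%, 3 libraries per condition). Right, ERRFI1 per EGFR as a ratio of CPM per kb, with points for libraries, bars for means and whiskers for the SD. The HBEGF share was 62.7% in non-OSC and 33.7% in OSC, and ERRFI1 per EGFR was 3.59 and 14.98. The dotted lines separate the 2 count tables.

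The hairpin libraries were compared with shCtrl to see how the family differs when PDK1 is lowered in sphere culture. Both comparisons use the same 3 shCtrl libraries. With shPDK1#1, 1 of 7 tested members was called, ERRFI1. This comparison called 3.06% of the 14574 genes tested, 1.62% as higher and 1.44% as lower. With shPDK1#2, 2 of 7 members were called, HBEGF and NRG1, both lower. That comparison called 26.2% of all genes, 12% as higher and 14.2% as lower, so the share of members called was near the background. At an unadjusted p under 0.05, 2 members differed with shPDK1#1 and 4 with shPDK1#2. The median log2 fold change over the 7 members was -0.10 with shPDK1#1 and -0.34 with shPDK1#2, against 0.00 and 0.01 over all genes tested. With 7 genes the median is the value of 1 gene, in both cases TGFA, which was not called.

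EGFR was at 300.7, 276.7 and 280.8 CPM in shCtrl, at 316.9, 304.3 and 309.3 with shPDK1#1 and at 315.6, 316.0 and 293.7 with shPDK1#2. The libraries of shPDK1#1 were all above those of shCtrl, and 1 library of shPDK1#2 fell among them. The log2 fold change was 0.12 ± 0.043 with shPDK1#1 (SE, adjusted p = 0.175, edgeR) and 0.11 ± 0.043 with shPDK1#2 (SE, adjusted p = 0.0637, edgeR). Neither was called. The value with shPDK1#2 lay close to the threshold and was called in 5 of 15 alternative settings, including those without shCtrl replicate 1 (0.15), without shPDK1#1 replicate 2 (0.11) and without shPDK1#2 replicate 3 (0.14).

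ERBB2 was at 45.8, 36.9 and 43.98 CPM in shCtrl, at 35.6, 38.5 and 38.2 with shPDK1#1 and at 46.3, 46.3 and 43.96 with shPDK1#2. The shCtrl libraries overlapped those of each hairpin. Against shCtrl the log2 fold change was -0.17 ± 0.084 with shPDK1#1 (SE, adjusted p = 0.367, edgeR) and 0.11 ± 0.082 with shPDK1#2 (SE, adjusted p = 0.346, edgeR), neither of them called.

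HBEGF was at 6.69, 6.12 and 5.59 CPM in shCtrl, at 5.22, 5.86 and 5.54 with shPDK1#1 and at 4.004, 3.84 and 3.54 CPM with shPDK1#2. All 3 shPDK1#2 libraries were below the 6 others, while shPDK1#1 overlapped shCtrl. The log2 fold change was -0.69 ± 0.20 with shPDK1#2 (SE, adjusted p = 0.0127, edgeR), on 34 to 43 counts per library against 45 to 61 in shCtrl. Without shCtrl replicate 1 it was -0.63 and not called (adjusted p = 0.0533). With shPDK1#1 the value was -0.15 and the 95% interval -0.55 to 0.26 (adjusted p = 0.811, edgeR).

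NRG1 was at 9.98, 12.6 and 10.2 CPM in shCtrl, at 9.08, 11.6 and 7.24 with shPDK1#1 and at 7.73, 8.60 and 7.71 with shPDK1#2. The shPDK1#2 libraries lay below all shCtrl libraries, and the shPDK1#1 libraries spread across both. With shPDK1#2 the log2 fold change was -0.45 ± 0.17 (SE, adjusted p = 0.0499, edgeR), at the very edge of the threshold. It was not called in 8 of 15 alternative settings, among them DESeq2 (adjusted p = 0.103). The others were the fits without shCtrl replicate 1 (adjusted p = 0.052), 2 (0.238) or 3 (0.0591), without shPDK1#1 replicate 1 (0.0513), and without shPDK1#2 replicate 1 (0.123), 2 (0.0603) or 3 (0.119). The value without shCtrl replicate 2 was -0.33. With shPDK1#1 the log2 fold change was -0.25 ± 0.17 (SE, adjusted p = 0.561, edgeR).

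TGFA and AREG were not called with either hairpin. TGFA ranged from 4.82 to 6.71 CPM in shCtrl, from 4.82 to 5.81 under shPDK1#1 and from 4.004 to 5.66 under shPDK1#2. The 95% interval of its log2 fold change was -0.53 to 0.34 for the first hairpin and -0.78 to 0.10 for the other. AREG ranged from 3.73 to 4.72 CPM in shCtrl, from 3.61 to 5.63 under shPDK1#1 and from 3.17 to 3.44 under shPDK1#2. Its shPDK1#2 libraries lay below all shCtrl libraries, but with 31 to 34 counts each the interval was -0.89 to 0.14 (adjusted p = 0.3, edgeR). Summed over the 6 ligands, the level was 8.47 ± 0.44 CPM per kb in shCtrl, 8.16 ± 0.85 with shPDK1#1 and 6.10 ± 0.40 with shPDK1#2 (SD, n = 3). The sums of shPDK1#2 lay below those of the other groups, and the shares stayed close, with AREG at 40.6% ± 2.7, 44.1% ± 5.7 and 43.6% ± 1.1 and HBEGF at 30.9% ± 4.4, 29.0% ± 2.5 and 26.4% ± 2.1.

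ERRFI1 was at 983.0, 979.3 and 1008 CPM in shCtrl, at 1137, 1109 and 1143 with shPDK1#1 and at 934.1, 932.0 and 968.0 CPM with shPDK1#2. The 3 groups did not overlap, with shPDK1#1 above and shPDK1#2 below shCtrl. The log2 fold change was 0.19 ± 0.032 with shPDK1#1 (SE, adjusted p = 0.000682, edgeR), and the call was kept in 15 of 15 alternative settings. With shPDK1#2 it was -0.07 ± 0.032 (SE, adjusted p = 0.13, edgeR) and was not called. ERRFI1 per EGFR, as CPM per kb, was 11.1 ± 0.55 in shCtrl, 11.6 ± 0.17 with shPDK1#1 and 9.81 ± 0.63 with shPDK1#2 (SD, n = 3).

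The hairpins were also compared with each other, which does not use the shCtrl libraries as a reference. Of the 7 members, 2 were called, ERBB2 and ERRFI1, against 16.3% of the 14574 genes tested, 6.5% as higher and 9.78% as lower with shPDK1#2. ERBB2 was higher with shPDK1#2 than with shPDK1#1 in every library, by 0.28 ± 0.082 on the log2 scale (SE, adjusted p = 0.0192, edgeR). The call was lost without shPDK1#1 replicate 1 (0.25, adjusted p = 0.0767) and without shPDK1#2 replicate 1 (0.27, adjusted p = 0.0658) or 2 (0.27, adjusted p = 0.0534). EGFR per ERBB2, as CPM per kb, was 3.13 ± 0.27 in shCtrl, 3.82 ± 0.25 with shPDK1#1 and 3.12 ± 0.037 with shPDK1#2 (SD, n = 3). ERRFI1 was lower with shPDK1#2 than with shPDK1#1, with a log2 fold change of -0.26 ± 0.032 (SE, adjusted p = 1.63e-06, edgeR) that was called in 15 of 15 alternative settings. HBEGF, at -0.54 with a 95% interval of -0.97 to -0.12, was not called (adjusted p = 0.0716, edgeR), so the HBEGF call with shPDK1#2 alone is not shown to be a difference between the hairpins. For EGFR the difference was -0.01, with an interval of -0.10 to 0.08 (adjusted p = 0.935, edgeR).

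**Figure D3:**
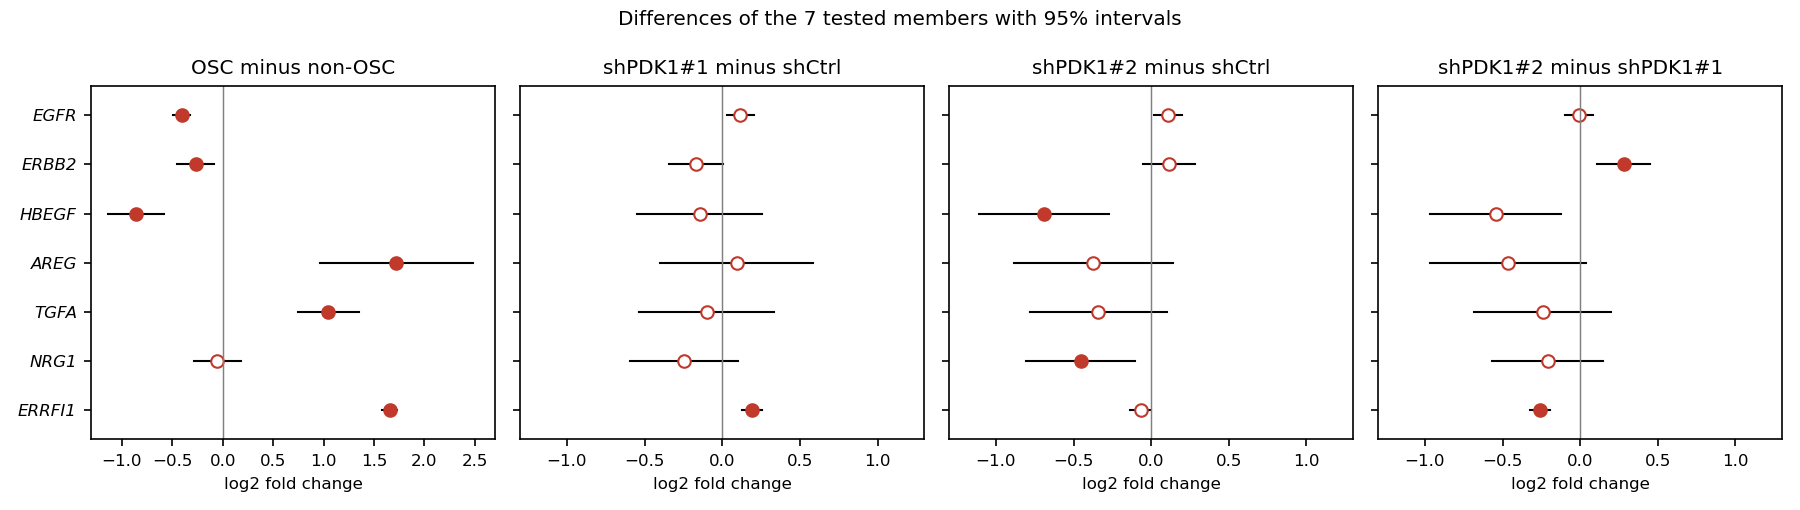
Log2 fold changes of the 7 tested members in the 4 comparisons, with 95% intervals as lines. Filled points passed an adjusted p of 0.05 and open points did not. The axis of the left panel is wider than the others. ERRFI1 at 1.66, AREG at 1.72 and TGFA at 1.05 stood to the right of 0 in OSC, and HBEGF stood to the left of 0 in OSC (-0.86) and with shPDK1#2 (-0.69).

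The genes around the receptors were followed in 5 lists. The first held the rest of the family, ERBB4, EGF, EPGN and the neuregulins NRG2, NRG3 and NRG4, of which NRG2 and NRG3 passed the filter. For each list, the counts of calls stand against 63.9% of all tested genes called in OSC, 3.06% with shPDK1#1, 26.2% with shPDK1#2 and 16.3% between the hairpins. Both were called higher in OSC. NRG3, a ligand of ERBB4, had 7 counts over the 3 non-OSC libraries (1 to 5 each) and 128 over the 3 OSC libraries (40 to 47 each), or 0.234 and 4.88 CPM, so its fitted log2 fold change of 4.25 rests on very few non-OSC counts. ERBB4 itself had 1 count over the 3 non-OSC libraries and 2 over the 3 OSC libraries. Its mean was 0.1145 CPM in shCtrl, 0.467 with shPDK1#1 and 0.941 with shPDK1#2, and it was not tested. NRG2 was at 10.5 ± 1.1 CPM in non-OSC and 13.5 ± 0.66 in OSC (SD, n = 3). Its log2 fold change of 0.36 (adjusted p = 0.0302, edgeR) was not called with DESeq2 (adjusted p = 0.0858) or without non-OSC replicate 1 (0.121), non-OSC replicate 3 (0.064) or OSC replicate 1 (0.0831). NRG2 was lower with both hairpins, at 15.5 CPM in shCtrl, 10.1 with shPDK1#1 (log2 fold change -0.60, adjusted p = 0.0413, edgeR) and 10.5 with shPDK1#2 (-0.56, adjusted p = 0.0101, edgeR). The first of these calls was lost without any one of the 3 shCtrl libraries, shPDK1#1 replicate 1 or shPDK1#2 replicate 3 (adjusted p up to 0.2), and the second without shPDK1#2 replicate 1 (adjusted p = 0.0644). NRG3 was not called with either hairpin, with log2 fold changes of -0.07 with shPDK1#1 and -0.06 with shPDK1#2. The count of 1 with shPDK1#2 was 2 with no filter on low counts. It was also 2 in the fits without shCtrl replicate 1 or 3 or without shPDK1#1 replicate 1 or 2, and 0 without shPDK1#2 replicate 1. The fits that gave 2 tested more genes, so the added call may be a gene that the filter had left out. Its name was not recorded. Between the hairpins edgeR and DESeq2 both called 0, with 0 at an unadjusted p under 0.05.

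Genes of ligand shedding and release, 11 in all with 10 tested, were all called in OSC, 7 as higher and 3 as lower, against 63.9% of all genes. The median log2 fold change was 0.27. ADAM12, a metalloprotease that can shed HBEGF, went from 9.77 ± 1.3 to 54.95 ± 4.4 CPM (log2 fold change 2.49, adjusted p = 1.9e-14, edgeR). RHBDF2, an iRhom that carries ADAM17 to the cell surface, went from 28.4 ± 1.0 to 44.2 ± 1.9 CPM (0.64), and ADAM17, the main sheddase of TGFA and AREG and chosen here after its value was seen, from 16.7 to 25.5 CPM (0.61, adjusted p = 0.000206, edgeR). TIMP3, an inhibitor of ADAM17, fell from 809.0 ± 20 to 460.7 ± 9.1 CPM (-0.81, adjusted p = 1.0e-13, edgeR), and ADAM19 fell from 359.1 to 254.0 CPM (-0.50). With shPDK1#1, TIMP3 was the 1 gene called of 10, against 3.06% of all genes, at 544.2 CPM in shCtrl and 478.1 with the hairpin (-0.19, adjusted p = 0.00213, edgeR). With shPDK1#2, 4 fell and 1 rose of 10, against 26.2% of all genes called, led by RHBDF2 from 36.3 ± 0.97 to 25.4 ± 3.0 CPM (-0.52) and ADAM19 from 497.6 to 373.0 (-0.42). Without shPDK1#2 replicate 3 the count was 3 in place of 5. Between the hairpins 3 of 10 were called, against 16.3% of all genes, all lower with shPDK1#2, with ADAM19 at -0.45. The medians with shPDK1#1, with shPDK1#2 and between the hairpins were 0.01, -0.02 and -0.10.

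Of 26 genes that relay the signal from receptor to RAS, ERK, PI3 kinase and STAT3, all were tested, and 11 were higher and 4 lower in OSC, with a median log2 fold change of 0.14. These 15 of 26 were not above the 63.9% of all genes called. SOS2, an activator of RAS, rose from 32.0 to 60.2 CPM (0.91, adjusted p = 9.94e-09, edgeR), and PIK3R2, a regulatory subunit of PI3 kinase, from 66.3 to 110.5 CPM (0.74). PTPN11, the phosphatase SHP2, fell from 292.7 to 218.1 CPM (-0.42), and AKT2 from 119.9 to 93.9 CPM (-0.35). With shPDK1#1, 1 was higher and 1 lower (median -0.03), against 3.06% of all genes called. STAT3 was at 127.7 CPM in shCtrl and 147.9 with the hairpin (0.22, adjusted p = 0.0159, edgeR), a call that was lost without shCtrl replicate 1 (adjusted p = 0.0847), shCtrl replicate 2 (0.151) or shPDK1#1 replicate 3 (0.0857). BRAF, the kinase below RAS, was at 22.0 and 15.6 CPM (-0.49, adjusted p = 0.0079, edgeR) and was not called without shCtrl replicate 1 (adjusted p = 0.0653). With shPDK1#2, 5 of 26 fell and 0 rose, which is below the 26.2% of all genes called. Among them were BRAF (-0.68, adjusted p = 2.83e-05), PIK3CA (-0.43, adjusted p = 7.05e-05) and MAP2K1 (-0.29, adjusted p = 0.000833, edgeR). The median over all 26 was -0.03. BRAF and PIK3CA were called in 15 of 15 alternative settings. Between the hairpins 3 were lower with shPDK1#2 (5 without shPDK1#1 replicate 2) and 0 were higher, against 16.3% of all genes called, with MAP2K1 at -0.31 and a median of -0.02.

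Of 15 genes that restrain the receptors or the pathway, 7 were higher and 3 lower in OSC, with a median log2 fold change of 0.16. These 10 of 15 were near the 63.9% of all genes called. SPRY1 and SPRY2, Sprouty proteins that are induced by ERK and block it, rose from 7.97 to 26.3 CPM (1.72) and from 63.7 ± 0.43 to 198.2 ± 9.1 CPM (1.64, adjusted p = 4.73e-16, edgeR). SOCS5, which promotes EGFR breakdown, fell from 126.5 to 72.8 CPM (-0.80), and the phosphatase PTPN2 from 46.1 to 32.5 CPM (-0.50). With shPDK1#1, edgeR called 0 of the 15, against 3.06% of all genes, and DESeq2 also called 0, with 3 at an unadjusted p under 0.05 and log2 fold changes between -0.15 and 0.26. With shPDK1#2, 2 were higher and 4 lower (median -0.09), a count of 6 of 15 that stood against 26.2% of all genes and was 2 without shCtrl replicate 3. CBL, the ubiquitin ligase that marks EGFR for degradation, fell from 176.0 to 143.8 CPM (-0.29, adjusted p = 3.98e-05, edgeR), a call kept in 15 of 15 alternative settings. SPRY2 fell from 170.7 to 150.5 CPM (-0.18, adjusted p = 0.01, edgeR), which was lost without shCtrl replicate 3 (adjusted p = 0.0857), and PTPN2 rose from 40.9 to 48.3 CPM (0.24), which was lost without shCtrl replicate 1 (adjusted p = 0.0626) or shPDK1#2 replicate 3 (0.0917). Between the hairpins 1 was higher and 3 were lower with shPDK1#2 (median -0.05), against 16.3% of all genes called, with CBL at -0.32. That count was 2 without shPDK1#1 replicate 2 or 3 or without shPDK1#2 replicate 1. SPRY1, at 0.34 (adjusted p = 0.0394, edgeR), was not called with DESeq2 (adjusted p = 0.0876) or without shPDK1#1 replicate 1, 2 or 3 or shPDK1#2 replicate 1 or 2 (adjusted p up to 0.153).

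Of 10 genes taken as readouts of ERK output, which share SPRY2 and SPRY4 with the previous list, 5 were higher and 3 lower in OSC, with a median log2 fold change of 0.16, against 63.9% of all genes called. SPRY2 at 1.64 and EPHA4 at 0.96 led the rises. EPHA2, a receptor tyrosine kinase, fell from 201.3 ± 12 to 62.2 ± 5.1 CPM (-1.69, adjusted p = 2.4e-15, edgeR), and the ERK phosphatase DUSP4 from 230.8 to 163.7 CPM (-0.50), so the list did not move one way. With shPDK1#1, 2 of 10 fell and 0 rose (median -0.04), against 3.06% of all genes called, with EPHA2 from 60.5 to 46.8 CPM (-0.37, adjusted p = 0.00332, edgeR) and CCND1 at -0.16. With shPDK1#2, 4 of 10 fell and 2 rose (median -0.14), against 26.2% of all genes called. CCND1, the cyclin D1 gene, fell from 1052 ± 21 to 740.3 ± 1.8 CPM (-0.51, adjusted p = 4.28e-12, edgeR) and PHLDA1 from 768.2 to 550.8 CPM (-0.48), while ETV4 and DUSP4 rose by 0.23 and 0.19. Between the hairpins 2 were higher and 3 lower with shPDK1#2 (median -0.03), against 16.3% of all genes called. PHLDA1 was at -0.44. EPHA2, at 0.22 (adjusted p = 0.0372, edgeR), was not called with DESeq2 (adjusted p = 0.0612), with only the compared groups (0.0592) or without either of shPDK1#1 replicates 1 and 3 or shPDK1#2 replicates 1 and 2 (up to 0.19). That count of 5 was 2 without shPDK1#1 replicate 3 and 3 without shPDK1#2 replicate 1 or 2.

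**Figure D4:**
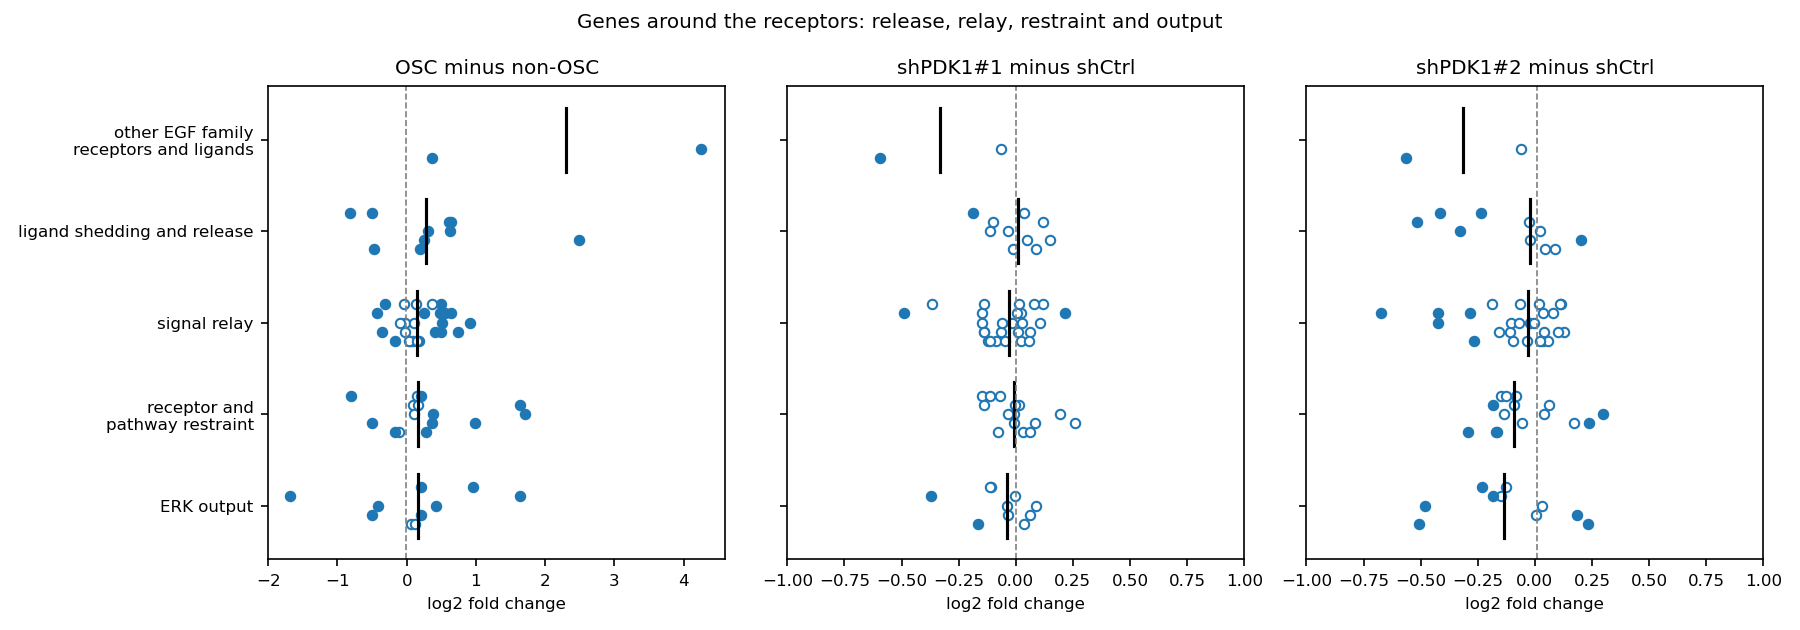
Log2 fold changes of the tested genes of the 5 lists in OSC against non-OSC and with each hairpin against shCtrl. Each point is a gene, filled where the adjusted p was under 0.05, and points are spread vertically for visibility. Thick bars mark the median of the list and the dashed line the median of all genes tested. The left axis is wider than the others. In OSC, NRG3 at 4.25 and ADAM12 at 2.49 lay farthest to the right and EPHA2 at -1.69 farthest to the left.

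The 3 members with the widest range of condition means were ERRFI1, AREG and TGFA, and the genes most like them were found over the 15 libraries, with log2 CPM centred within each table. For ERRFI1 these were the glucose transporter gene SLC2A3 (Pearson r = 0.997), the histone demethylase gene KDM5B (r = 0.996) and DEPP1 (r = 0.996). For AREG they were SPTY2D1 (r = 0.963), WBP1L (r = 0.956) and GFPT1 (r = 0.952), and for TGFA they were PPP2R5D (r = 0.955), CDKN1C (r = 0.949) and SEC24A (r = 0.949). All of these r values describe likeness over libraries that fall into the culture groups and the hairpin groups, and the difference between OSC and non-OSC makes up most of the range.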

How the data were processed

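RNA of 143B cells was sequenced in 15 libraries (3 for each of 5 conditions). Per the labels, reads were mapped by STAR 2.7.11a on GRCh38.p14 after trimming by Trimmomatic 0.39 and a quality check by FastQC 0.12.1, and the authors deposited expected counts per gene from RSEM 1.3.3, with no scaling between libraries. The annotation is not given in the sources used here. Expected counts can split reads between similar genes, and of the values of the members 1, for EGFR, was not whole. Columns were assigned to conditions by their names, S2D being read as non-OSC and S3D as OSC without a source that says so, and 0 columns were left unmapped. Expected counts were rounded and tested in R 4.3.3 with edgeR 4.0.16 (TMM, filterByExpr, quasi-likelihood test), each table in one fit with group means, with Benjamini-Hochberg adjustment over the genes tested. The alternatives were each library left out, a fit with the replicate number as a block, a fit of the compared groups alone, a stricter filter (10 counts or more in every library) or none, scaling by library size, and DESeq2 1.42.0. Intervals are 95% from the fit. Plots were drawn with matplotlib 3.10.9. The script was tested on simulated counts. The members, the lists and the tests were chosen with earlier results of these data known. All members are reported. From each list, the 2 largest rises and the 2 largest falls are named for OSC and shPDK1#2, and 1 of each for shPDK1#1 and between the hairpins, where the gene was called, reached a mean of 10 CPM in a group and had no overlap of the libraries. Other genes were named after their values were seen. Values of some single genes of the lists are not reported here. Likeness was computed with a prior count of 2.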

Additional observations from a re-analysis of the deposited data

Results flagged for a closer look

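The effects of the hairpins differed by a test of the difference itself for 2 members. ERBB2 was higher with shPDK1#2 than with shPDK1#1 by 0.28 on the log2 scale (adjusted p = 0.0192, edgeR). That call was lost in 3 of 15 alternative settings, and ERBB2 was not called against shCtrl with either hairpin. ERRFI1 was lower with shPDK1#2, with a log2 difference of -0.26 (adjusted p = 1.63e-06, edgeR) that was called in 15 of 15 alternative settings. PDK1 itself was at 28.1 ± 0.84 CPM with shPDK1#1 and 19.8 ± 1.7 with shPDK1#2 (SD, n = 3), so a smaller remaining level of PDK1 and another hairpin sequence go together and cannot be told apart.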

How the results depend on the processing

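Calls of ERRFI1, TGFA, HBEGF, EGFR and AREG in OSC were kept in every alternative that tested them (AREG was not tested with at least 10 counts in every library). With shPDK1#2 against shCtrl, 1 member in place of 2 was called with DESeq2, and 1 to 3 were called when 1 library was left out. Between the hairpins, 1 to 2 members were called when 1 library was left out. The number of genes called with shPDK1#1, 446, ranged from 245 (without shPDK1#1 replicate 3) to 508 when 1 library was left out, and was 270 and 282 without shCtrl replicates 1 and 2. Uncalled values that changed sign when 1 library was left out were NRG1 in OSC (-0.14 to 0.019), AREG with shPDK1#1 (-0.12 to 0.22), TGFA with shPDK1#1 (-0.22 to 0.0032) and EGFR between the hairpins (-0.025 to 0.026). The causes were not tested. Libraries with the same replicate number had correlations of deviations of -0.01 to 0.07 (cultures) and -0.05 to 0.09 (hairpins). For different numbers these were -0.08 to 0.02 and -0.05 to 0.05. With so few pairs, a pairing by number is neither shown nor excluded. With the replicate number as a block, EGFR with shPDK1#2 was called (0.11, adjusted p = 0.0403, edgeR), and 9420, 507, 3943 and 2522 genes were called in OSC, with shPDK1#1, with shPDK1#2 and between the hairpins. Depth limited AREG, HBEGF, TGFA and NRG1, which had 126 counts or fewer in every hairpin library.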
